A study of Pisaster ochraceus with 50 samples.

Results

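The 60 genes described here had the steepest fitted increase of level with body size in both dermis and tube feet of asymptomatic ochre sea stars, Pisaster ochraceus. A gene's slope was the linear fit of log2(CPM + 2) on size class, small, medium, large and x-large being scored 1 to 4, where CPM is a gene's count scaled to a common total of gene reads per library (counts per 1e6). Of 21777 genes in the files, 6371 averaged 10 CPM or more in both tissues, and the 60 members are those with the highest value of the smaller of their dermis and tube feet slopes. The dermis and tube feet size values therefore chose the members and are described without a test. The choice used no pyloric caecum library, no symptomatic library and no difference of level between dermis and tube feet. Its floor of 10 CPM was taken on the asymptomatic libraries of dermis and tube feet. These libraries also enter the status and level comparisons below, so the floor favours genes present in them and limits differences between the tissues. The slopes were taken on the same libraries, so the members were also chosen for a spread with size among them.

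The libraries came from 17 wild animals of Point Reyes, 15 from McClures Beach and 2 from Lifeboat House, of which 15 were asymptomatic and 2 had symptoms of sea star wasting disease. From asymptomatic animals there were 3 small, 3 medium, 5 large and 3 x-large samples of dermis. For tube feet these numbers were 2, 3, 5 and 3, and for pyloric caecum 3, 3, 5 and 4, each library of a tissue being from a different animal. The symptomatic animals were a large one from McClures Beach (M0D055233U) and a medium one from Lifeboat House (M0D055236X), each with 1 library per tissue. Traits other than size were uneven over the classes. All small animals were orange, the medium ones were orange or brown, the large ones brown or, in the Lifeboat House animal M0D055234V, purple, and the x-large ones orange or brown. The feeding animals were the large M0D055232T and the x-large M0D055231S, and all others were labelled as not feeding. Size class and colour were thus not balanced.

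Sea stars have no fixed adult size: they grow while food is plentiful and can shrink without it, so size is a mixed record of age and feeding. The dermis is the body wall, where skeletal plates lie in a connective tissue whose stiffness is under nervous control. Tube feet are muscular, adhesive podia of the water vascular system, used to walk and to hold prey. The pyloric caecum is the digestive gland in each arm, which secretes enzymes and stores nutrients. The files give gene IDs without names, positions or sequences, so no function is stated for any member, and gene lengths are not known, so levels are compared between libraries and not between genes. In a biopsy, a higher level of a gene can come from more cells of a type or from more RNA per cell, and these cannot be told apart.

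Dermis libraries had 373930 to 611964 gene reads, tube feet libraries 619066 to 732460, and those of the pyloric caecum 721096 to 1105416, so 1 read was worth about 1 to 3 CPM. In dermis the medium class had the fewest gene reads (373930 to 407057) and the largest share of reads that met no gene (86.9% to 88.4%, against 81.2% to 85.7% in small animals). The tube feet library of M0D055228P, an x-large animal, stood apart. The 100 genes highest in tube feet relative to the other tissues took 2.28% of its gene reads, against 7.83% to 12.5% in the other asymptomatic Point Reyes tube feet libraries. No cell type or tissue marker could be checked by name.

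The steepest member was g10347. Its dermis levels were 0, 8.80 and 11.4 CPM in the small animals, 18.7, 76.2 and 114 in the medium, 339, 393, 441, 543 and 688 in the large and 485, 1176 and 1623 in the x-large ones. In tube feet they were 47.7 and 79.8 CPM in small, 459, 859 and 1308 in medium, 1404, 1505, 1540, 1707 and 2633 in large and 1931, 2004 and 2945 in x-large animals. Every large or x-large library stood above every small or medium one in both tissues. On the log2(CPM + 2) scale the slope was 2.51 per class in dermis and 1.56 in tube feet, and by the class means on that scale x-large animals were 148 and 35.3 times as high as small ones. The added 2 CPM weighs heavily in the dermis value, since 1 small library held no read.

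The next member, g669, had a peak before the last class. In dermis it held 26.4, 108 and 1071 CPM in small animals, 6175, 8697 and 13809 in medium, 13776, 14575, 17342, 25842 and 46484 in large and 3235, 11657 and 23265 in x-large animals. In tube feet the values were 17.1 and 25.3 in small, 265, 404 and 856 in medium, 519, 1253, 1948, 2217 and 3851 in large and 68.6, 1413 and 2505 in x-large animals. The small libraries lay below all others in each tissue, while x-large and large libraries overlapped. The step of the class means from large to x-large was -1.14 on the log2 scale in dermis and -1.35 in tube feet. This gene alone made up most of the members' reads in several dermis libraries, so the share of reads held by all 60 members is given below with and without it.

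The third member, g21298, was close to absent from small animals in both tissues. Dermis levels were 0, 1.63 and 3.52 CPM in small, 10.7, 12.4 and 46.7 in medium, 19.5, 30.8, 49.2, 86.0 and 138 in large and 96.6, 97.4 and 235 in x-large animals. Neither small tube feet library held a read, while tube feet held 3.01, 12.4 and 14.9 CPM in medium, 11.3, 17.9, 28.7, 43.8 and 45.3 in large and 3.12, 20.5 and 29.2 in x-large animals. The x-large tube feet thus reached down into the medium range, and the class mean there was lower than in large animals.

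**Figure D1:**
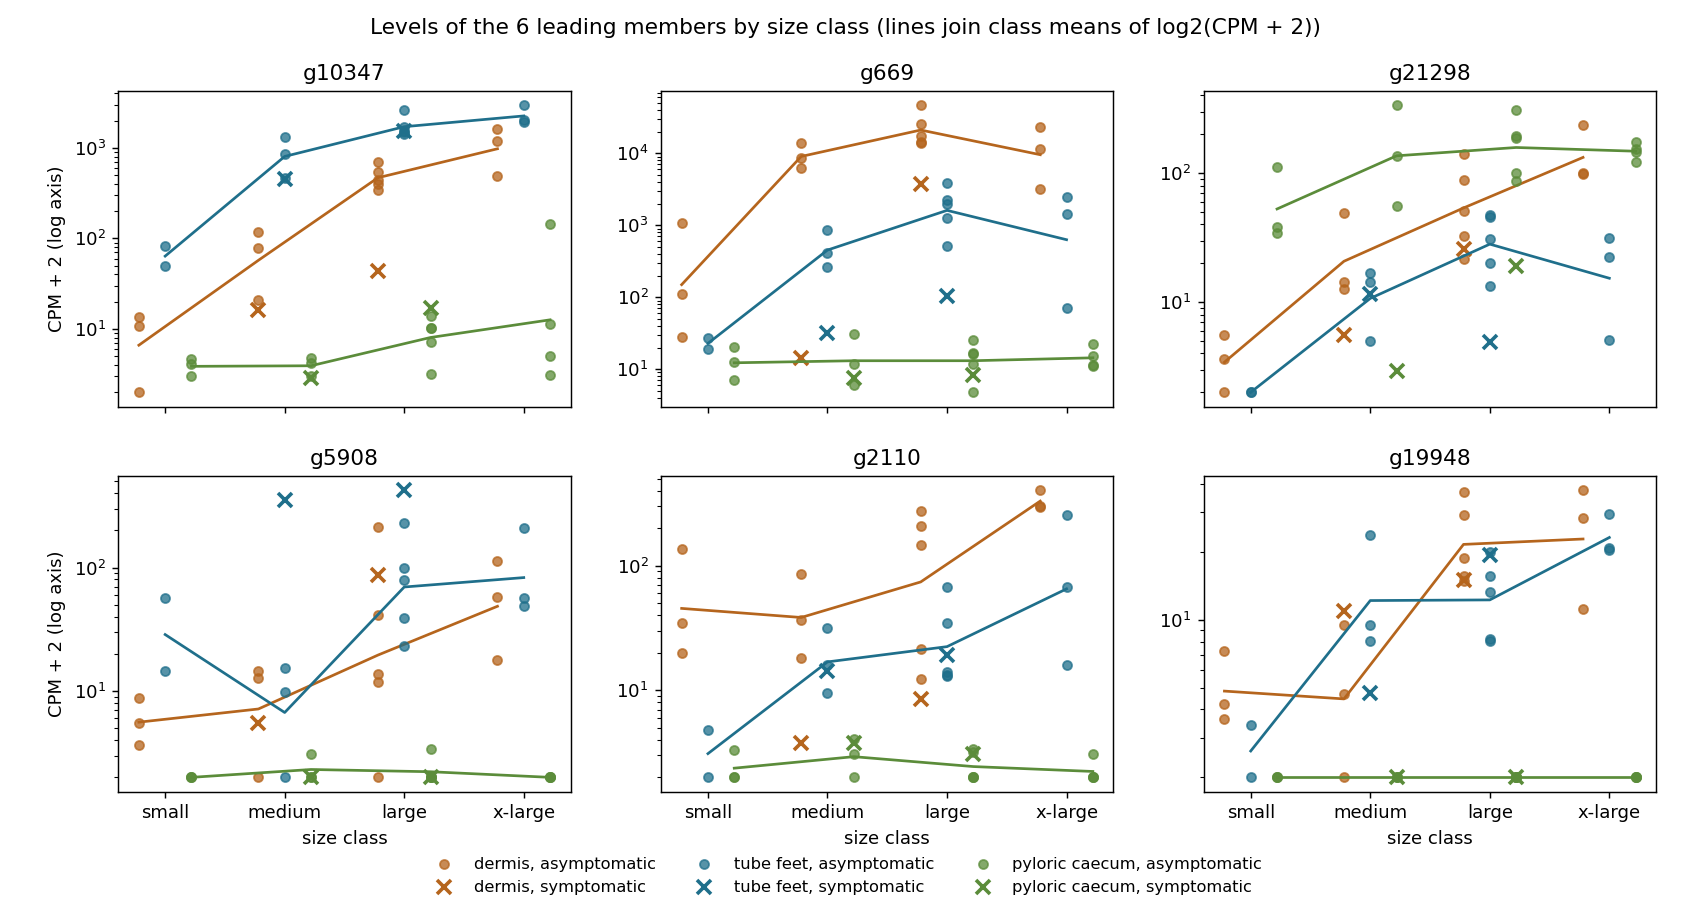
Level of the 6 steepest members in each library (y axis, CPM + 2 on a log axis) by size class (x axis), with circles for asymptomatic and crosses for symptomatic libraries, and lines joining the class means of log2(CPM + 2). In dermis and tube feet g10347, g669 and g21298 have their small animals at the bottom, while in pyloric caecum g669 shows no such order, at 2.77 to 28.8 CPM.

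The other members of the first 10 were less even from animal to animal. For g5908 the dermis classes held 1.63, 3.52 and 6.73, then 0, 10.7 and 12.4, then 0, 9.82, 11.7, 39.3 and 211, and then 15.8, 55.4 and 110.4 CPM from small to x-large. Its tube feet values were 12.6 and 54.1 in small, 0, 7.76 and 13.4 in medium, 21.2, 37.3, 77.1, 96.9 and 226 in large and 46.4, 54.6 and 206 in x-large animals. The 2 feeding animals held the highest large and the highest x-large tube feet values of g5908, and the medium class mean in tube feet lay below the small one.

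The gene g2110 set x-large dermis apart. All 3 x-large dermis libraries, at 297, 299 and 401 CPM, were above the 11 others, which held 18.0, 32.7 and 134 in small, 16.0, 34.4 and 84.5 in medium and 10.3, 19.5, 146, 206 and 275 in large animals. In tube feet its values were 0 and 2.81, then 7.52, 14.0 and 29.8, then 10.9, 11.3, 12.1, 32.9 and 65.0, and in x-large animals 14.0, 66.0 and 253 CPM. The highest of these was in the library of M0D055228P, the one low in tube feet genes.

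The IDs g19947 and g19948 follow each other, and both were members. In dermis g19948 stood at 1.63, 2.24 and 5.28 CPM in small, 0, 2.67 and 7.46 in medium, 12.8, 13.7, 16.8, 27.0 and 34.8 in large and 9.20, 26.3 and 35.4 in x-large animals. In dermis g19947 stood at 1.76, 8.98 and 9.80 CPM in small, 0, 2.46 and 2.67 in medium, 2.57, 3.90, 12.3, 26.2 and 32.8 in large and 39.1, 39.9 and 50.8 in x-large animals. For both genes small and medium dermis overlapped, and the x-large libraries lay above all small and medium ones. Tube feet levels of g19947 ran from 4.21 to 5.70 CPM in small to 31.2 to 35.3 in x-large animals, and those of g19948 from 0 to 1.42 to 18.4 to 27.3.

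For g6036 the small dermis libraries held 7.04, 9.80 and 24.7 CPM and the x-large ones 154, 272 and 278, with 46.7, 58.8 and 87.0 in medium and 56.6, 249, 254, 277 and 356 in large animals. Tube feet held 91.2 and 165 CPM in small, 277, 425 and 435 in medium, 452, 452, 573, 745 and 774 in large and 527, 607 and 784 in x-large animals. Its class means were nearly level from large to x-large dermis, with a step of 0.15. For g13377, dermis ranges were 4.49 to 38.7 CPM in small, 0 to 12.4 in medium, 7.80 to 86.0 in large and 45.5 to 64.2 in x-large animals, and the medium class mean was the lowest. For g20996, tube feet ranges were 47.7 to 92.6, 143 to 444, 217 to 424 and 253 to 512 CPM from small to x-large, and small and x-large dermis overlapped.

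Over all 60 members the dermis slope ran from 0.35 to 2.51 log2 units per class, with a median of 0.50, and the tube feet slope from 0.34 to 1.56, also with a median of 0.50. Among the 6371 eligible genes the median of the smaller slope was -0.08, and 1921 had both slopes above 0. The members' smaller slope had a median of 0.44, so most lay much nearer the limit than g10347 did. The small class weighs heavily in the choice: fitted on medium to x-large animals alone, the members' median slope was 0.78 in dermis and 0.31 in tube feet, 52 had both slopes above 0, and 17 of the 60 would have been chosen. Just inside the limit were g5833, with slopes of 0.35 and 0.35 in dermis and tube feet, g4100 with 0.55 and 0.34, and g11766 with 0.85 and 0.34. Just outside were g17556 with 0.34 and 0.37, g6234 with 0.34 and 0.54, and g5091 with 0.34 and 0.35. The smaller slopes of these 6 genes differed by at most 0.01, so the limit of 60 marks no break.

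The members differed in which tissue was steeper: 35 had the larger slope in dermis and 25 in tube feet. The dermis slope exceeded that of tube feet most in g6826, at 1.83 against 0.53, and next in g10347. In dermis g6826 held 0, 1.63 and 11.2 CPM in small and 113, 209 and 555 in x-large animals, while in tube feet it held 17.1 and 22.5 in small and 46.4, 56.1 and 198 in x-large animals. The x-large libraries of g6826 lay above the small ones in both tissues, by 52.0 times in the dermis class means and 3.82 times in those of tube feet. Tube feet were steeper most in g2110, at 1.30 against 0.92, and in g139, at 0.68 against 0.37.

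After g669 the member with the highest mean CPM over dermis and tube feet was g7769, which held 1530, 2428 and 4509 CPM in small, 2321, 3432 and 3506 in medium, 3086, 5835, 6804, 7597 and 8363 in large and 3465, 10712 and 18895 in x-large dermis. Its tube feet held 688 and 758 CPM in small and 969, 3086 and 4909 in x-large animals, with 1629 to 2174 in medium and 1522 to 3604 in large ones. At the other end g13885, near the floor of 10 CPM, held 1.63, 7.04 and 13.5 CPM in small and 5.25, 17.7 and 20.7 in x-large dermis, and 2.81 and 4.27 in small and 10.9, 15.0 and 15.4 in x-large tube feet. At such levels a library rests on few reads of the gene.

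All 3 x-large dermis libraries were above all 3 small ones in 32 of the 60 members, where 3.44% of the eligible genes had this separation. In tube feet, with 3 x-large and 2 small libraries, 49 of 60 members were separated and 19.2% of the eligible genes. The choice of members on the same libraries fixes most of this, so the counts are given as a description. Without the tube feet library of M0D055228P the counts were 52 of 60 members and 24.1% of eligible genes.

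Together the members took 0.484% to 1.16% of the gene reads in small dermis, 1.65% to 2.41% in medium, 2.35% to 6.65% in large and 2.65% to 4.68% in x-large dermis. Without g669 the dermis shares were 0.473% to 1.06%, 0.784% to 1.19%, 0.891% to 2.03% and 1.48% to 3.52%. In tube feet the 60 members took 0.680% to 0.755% in small, 1.52% to 2.19% in medium, 1.92% to 3.07% in large and 2.09% to 3.63% in x-large animals. Small tube feet lay below all others, and the large and x-large ranges overlapped.

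**Figure D2:**
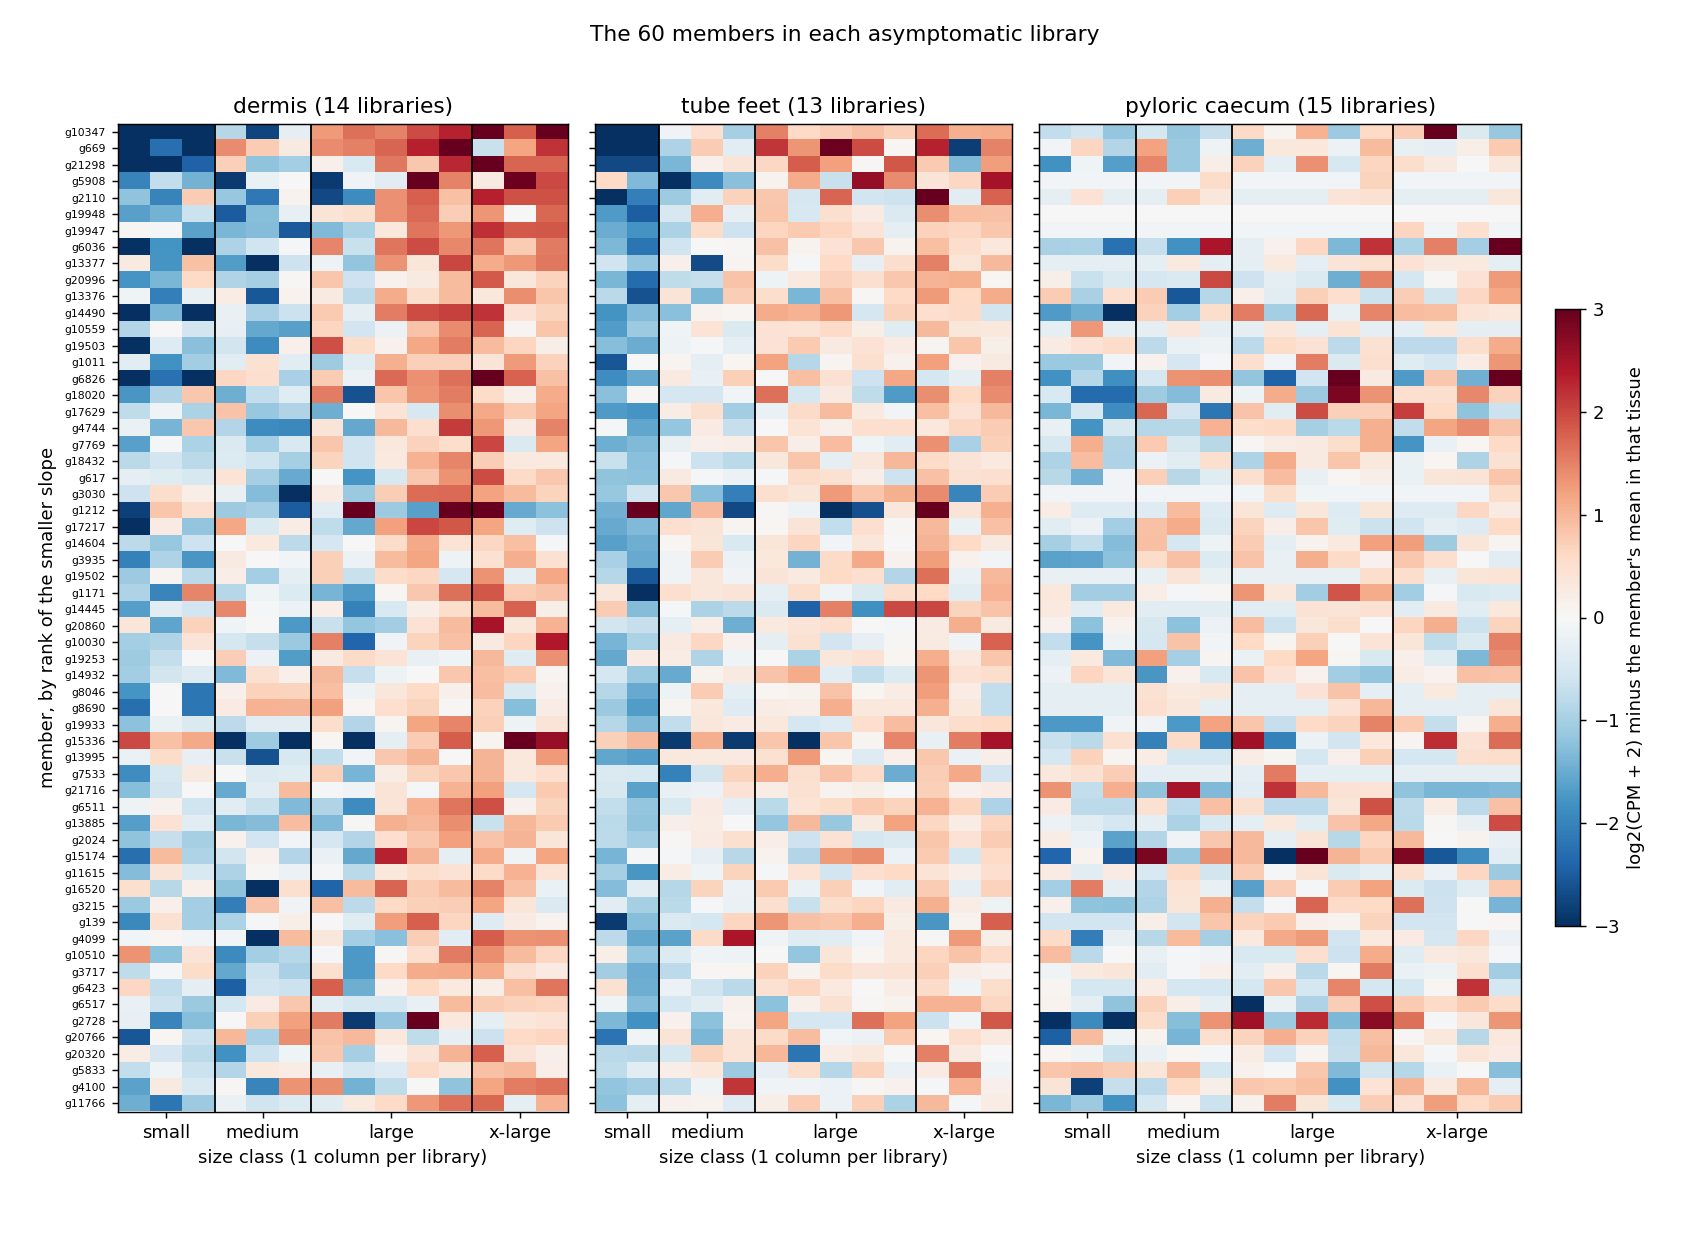
The 60 members (y axis, ranked by the smaller of their dermis and tube feet slopes) in each asymptomatic library (x axis, 1 column per library, grouped by size class), coloured by log2(CPM + 2) minus the member's mean in that tissue, with colours limited to 3 log2 units. The small columns are mostly blue in dermis and tube feet, the second large dermis column (M0D055226N) is bluer than its neighbours, and pyloric caecum is paler.

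The shape over the classes asked where along the size range the members' levels differed most. In tube feet the largest step between neighbouring class means was small to medium in 41 members, medium to large in 10 and large to x-large in 9. The median steps were 1.21, 0.30 and 0.29 log2 units, and the median member had reached 66.1% of its small to x-large difference by medium and 82.9% by large. In 28 members every tube feet step was above 0. Among the 1921 eligible genes with both slopes above 0, the largest tube feet step was small to medium in 44.9%, medium to large in 27.7% and large to x-large in 27.4%, and 18.8% had every step above 0.

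In dermis, by CPM, the largest step was small to medium in 18 members, medium to large in 29 and large to x-large in 13, and 23 members had every step above 0. The median steps were 0.22, 0.95 and 0.50, with 14.1% of the difference reached by medium and 68.2% by large. Among the 1921 genes the shares were 18.6%, 54.2% and 27.2%, and 5.83% had every step above 0. This late dermis shape by CPM depended on the scaling, and with TMM-scaled CPM the counts were 31, 20 and 9 members. TMM scales libraries on the bulk of their genes. The median eligible gene itself was 0.78 log2 units lower in medium than in small dermis by CPM, and TMM raised medium against small dermis by 0.60, lowered large against medium by 0.28 and lowered x-large against large by 0.15.

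Measured against the median eligible gene, the members' median steps in dermis were 1.01, 0.58 and 0.30 log2 units by CPM and 1.01, 0.57 and 0.27 with TMM. In tube feet they were 1.13, 0.40 and 0.18 by CPM and 1.12, 0.41 and 0.17 with TMM. Relative to the other genes of the same libraries, the first step was thus the largest and the last the smallest in both tissues. TMM moves all genes of a library by the same factor. The near equality of the CPM and TMM values here was therefore fixed in advance and adds no support. Medium dermis was also the class with the fewest gene reads, and the part of depth in the dermis steps was not tested.

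**Figure D3:**
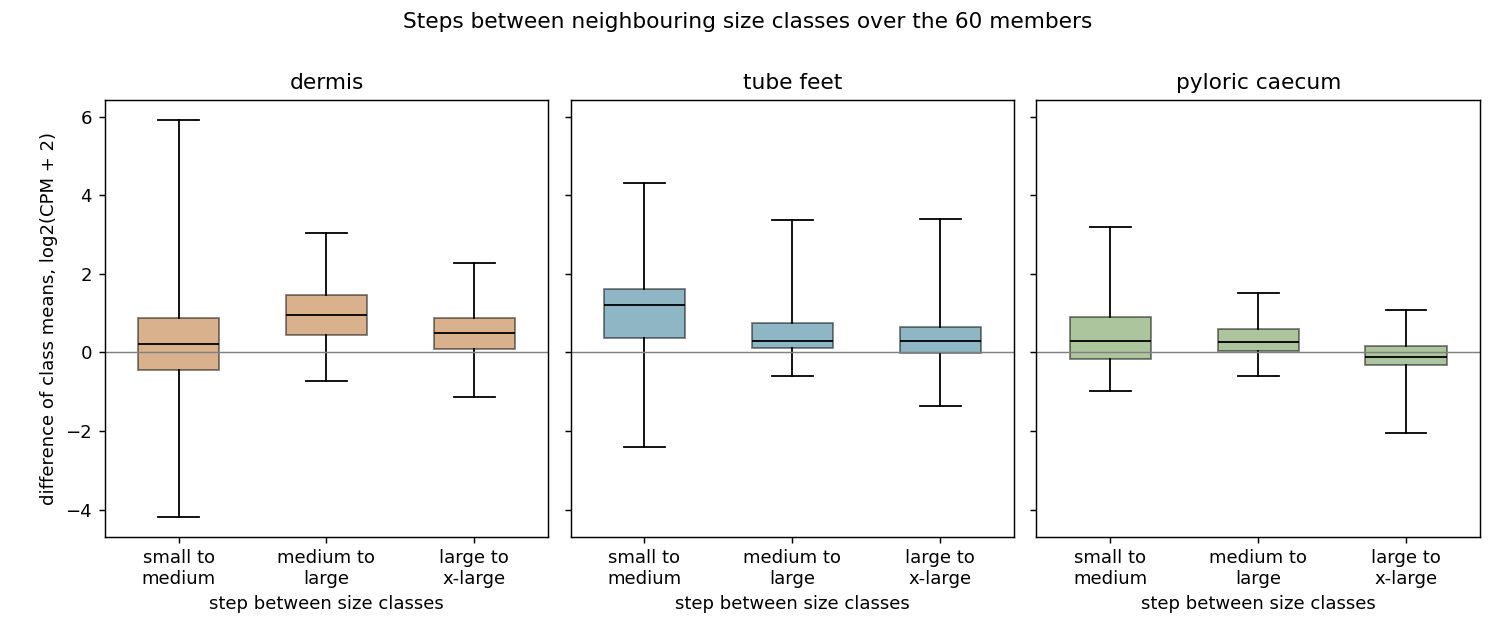
Differences of class means of log2(CPM + 2) between neighbouring size classes (y axis) for the 60 members in each tissue (x axis, the 3 steps), as boxes from the lower to the upper quartile with the median as a line and whiskers to the lowest and highest member. By CPM the dermis boxes are highest at medium to large (median 0.95; with TMM the medians are 0.76, 0.68 and 0.35), and the tube feet boxes at small to medium (median 1.21), and the last step in pyloric caecum has a median of -0.12.

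The largest step fell between the same classes in dermis and tube feet, by CPM, for 16 members at small to medium, 8 at medium to large and 2 at large to x-large. For small to medium the steepest were g10347, with steps of 3.11 in dermis and 3.66 in tube feet, and g669, with 5.92 and 4.31. For medium to large they were g5908, with 1.45 and 3.38, and g13377, with 2.40 and 1.10. The medium class mean of g5908 lay below the small one in tube feet, and that of g13377 in dermis. For large to x-large they were g14445, with 1.28 and 1.43, and g5833, with 0.72 and 0.60.

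Some members had steps below 0. In dermis, by CPM, the small to medium step was below 0 in 22 members, the medium to large step in 7 and the large to x-large step in 14. In tube feet these counts were 6, 11 and 16. Among the 1921 eligible genes with both slopes above 0 they were 1332, 389 and 525 in dermis and 494, 807 and 564 in tube feet. Those are larger shares than the members' at every step, and the choice of steep genes itself favours fewer such steps among the members. The gene g15336, named after its values were seen, held 47.1, 56.3 and 103 CPM in small dermis, 0, 0 and 10.7 in medium, 0, 19.6, 25.7, 43.0 and 91.6 in large and 26.3, 162 and 259.9 in x-large dermis. Its class means were 103, 44.4, 84.4 and 179.6 CPM in tube feet. Small and x-large libraries overlapped in both tissues, and its fold between those classes was the lowest among the members, 1.59 in dermis and 1.34 in tube feet.

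The mean deviation of the 60 members from their tissue mean gave 1 score per library, on the log2(CPM + 2) scale. Dermis scores were -1.25, -0.79 and -0.75 in small, -0.77, -0.58 and -0.45 in medium, -0.69, 0.15, 0.47, 0.90 and 1.05 in large and 0.66, 0.87 and 1.19 in x-large animals. By CPM, small and medium dermis overlapped, and so did large and x-large. TMM raised medium against small dermis by 0.60 log2 units, and no scores with TMM are given, so these overlaps hold for CPM only. The large dermis library of M0D055226N, at -0.69, was within the small and medium range, with 11 of 60 members above the tissue mean against 36 to 54 in the other large dermis libraries. In the same animal the tube feet score was 0.07 and the pyloric caecum score 0.03. Tube feet scores were -1.28 and -1.16 in small, -0.43 to -0.05 in medium, 0.07 to 0.37 in large and 0.27 to 0.90 in x-large animals, and there only large and x-large overlapped.

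**Figure D4:**
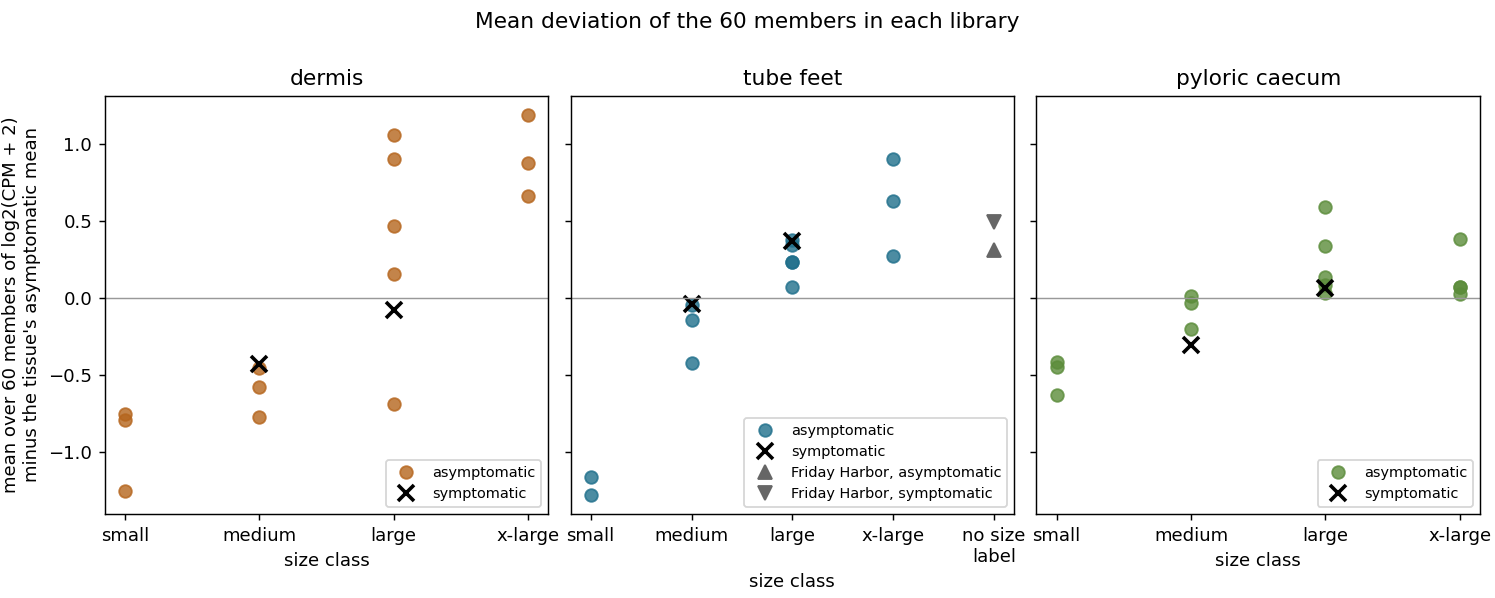
Mean deviation of the 60 members from the tissue's asymptomatic mean (y axis, log2(CPM + 2) units) in each library by size class (x axis), with circles for asymptomatic and crosses for symptomatic libraries and triangles for the Friday Harbor pair, which has no size label. The low large dermis point at -0.69 is M0D055226N, and the symptomatic points lie at or near the range of their own class.

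The labels name 5 batches without saying of what, and small and x-large dermis shared none of them. Within dermis batches, the members higher in the larger class numbered 57 of 60 in batch 1 (1 small against 1 large library), where 52.3% of eligible genes were, and 37 in batch 2 (1 small against 2 large), where 13.9% were. They numbered 54 in batch 3 (1 medium against 2 x-large; 65.7% of eligible genes), 32 in batch 4 (1 small against 1 medium; 25.1%) and 21 in batch 5 (1 large against 1 x-large; 24.0%). Batch 2 includes the low library of M0D055226N, and in batch 5 the large library is the highest-scoring large one. Tube feet gave 56 of 60 in batch 1 (small against x-large; 48.9% of eligible genes), 47 in batch 2 (medium against large; 42.6%) and 53 in batch 3 (medium against x-large; 54.7%). Batches 4 (small against large) and 5 (large against x-large) gave 54 and 41 members in tube feet, where 47.7% and 54.0% of eligible genes were higher. These libraries also chose the members. Each of these contrasts rests on 2 or 3 libraries. With batch as a term in the slopes, 57 members kept both slopes above 0 and 39 of the 60 would still have been chosen.

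The pyloric caecum libraries played no part in the choice, but came from animals whose dermis or tube feet chose the members. They are thus not an independent set of animals. In pyloric caecum the members were mostly lower and less regular with size. Their mean over asymptomatic animals was under 1 CPM in 13 members, between 1 and 10 in 15 and 10 or more in 32, and 7 members were higher there than in both other tissues. The gene g19948 had no read in any pyloric caecum library. The choice asked for 10 CPM in dermis and tube feet and set no such limit in pyloric caecum, so this difference of level was not tested. The slope over the 4 classes had a median of 0.14 and was above 0 in 48 of 60 members, against a median of 0.08 and 4268 of the 6371 eligible genes. The median steps were 0.29, 0.28 and -0.12 from small to x-large.

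The size trend in pyloric caecum was tested with edgeR's quasi-likelihood test over the 13220 genes averaging 1 CPM or more, which left 47 members. At a false discovery rate of 0.01 no member was called higher with size, where 0.31% of all genes were, and none was called lower, where 0.318% were. At an unadjusted p under 0.05, 10 members were higher with size (6.24% of all genes) and 2 lower (5.22%). The DESeq2 Wald test called 2 higher (0.87% of all genes) and none lower (0.688%). The fitted change per class was above 0 in 35 of the 47, with a median of 0.24 log2 units against 0.02 over all genes tested. In 7 of the 47 members all x-large pyloric caecum libraries were above all small ones, against 9.95% of the genes tested. Within batches, the members higher in the larger class numbered 38 of 60 in batch 3 (2 small against 1 large library), where 78.2% of eligible genes were, and 38 in batch 4 (1 small against 2 x-large), where 71.8% were. They numbered 30 and 16 in batches 1 and 5 (1 large against 1 x-large each), where 39.5% and 50.6% of eligible genes were. In batches 3, 4 and 5 the members' share was thus below that of the eligible genes.

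The members nearest to the threshold in pyloric caecum were g10347 and g11766, named after their values were seen. The change per class of g10347 was 1.85 ± 0.40 log2 units (SE; adjusted p = 0.0125, edgeR). Its levels were 1.04, 2.10 and 2.66 CPM in small, 1.03, 2.21 and 2.74 in medium, 1.21, 5.18, 8.27, 8.32 and 11.9 in large and 1.09, 3.01, 9.41 and 142 in x-large animals, so 1 x-large library lay far above the other 3. For g11766 the change was 0.72 ± 0.16 (adjusted p = 0.0125), with ranges of 7.26 to 13.3 CPM in small, 18.8 to 31.9 in medium, 21.8 to 92.3 in large and 41.7 to 74.8 in x-large animals. Small and x-large libraries did not overlap for g11766. Without the feeding animals both were called, g10347 at 1.97 ± 0.35 (adjusted p = 0.0024) and g11766 at 0.78 ± 0.16 (adjusted p = 0.0084), and with batch as a term neither was (adjusted p = 0.0877 and 0.0714).

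By DESeq2 the calls in pyloric caecum were g11766, at 0.73 ± 0.16 (adjusted p = 4.9e-04), and g2728, at 1.16 ± 0.30 (adjusted p = 0.0057). In pyloric caecum g2728 held 4.15, 9.43 and 23.9 CPM in small, 38.1, 141 and 245 in medium, 36.3, 43.5, 453, 562 and 634 in large and 92.7, 122, 239 and 305 in x-large animals, and edgeR gave it 1.11 ± 0.40 (adjusted p = 0.210). The small libraries of g2728 lay below all others, and the large ones ranged widely. In contrast g669, the second steepest member of dermis and tube feet, showed no such order in pyloric caecum, with 5.18, 10.5 and 18.6 CPM in small and 8.97, 9.41, 13.1 and 20.7 in x-large animals. For g21298 the pyloric caecum values were 32.5, 36.3 and 109 CPM in small, 53.5, 134 and 333 in medium, 84.8, 97.5, 186, 193 and 309 in large and 119.5, 144, 152 and 173 in x-large animals. In pyloric caecum 5468 genes averaged 10 CPM or more, 32 members included. The 60 of these 5468 genes with the highest slopes held 3 of the 32 members: g14490, g18020 and g2728. The remaining members were under that floor and could not enter the list.

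Dermis and tube feet differed in the level of many members. With size class as a covariate, 19 of 60 members were higher in dermis, where 12.6% of all genes tested were, and 9 were lower in dermis, where 17.3% were (edgeR's quasi-likelihood test with Benjamini-Hochberg adjustment, false discovery rate 0.01, 14 against 13 libraries). The median log2 difference of dermis over tube feet was 0.52 among members and -0.13 over all genes. The genes tested averaged 1 CPM or more over the libraries fitted, while every member averaged 10 CPM or more in both tissues. Members and background were thus not matched for level, and no comparison with the eligible genes alone was made. The fit had no term for the animal, although animals gave libraries to both tissues, so the pairing was not used. With animal in place of size class as a term, all 28 calls were kept. The largest excess in dermis was that of g669, 4.27 ± 0.66 log2 units (SE; adjusted p = 2.1e-06).

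After g669 in dermis came g14445, at 3.08 ± 0.39 (adjusted p = 5.5e-08), with 27.3 to 409 (median 124) CPM in asymptomatic dermis and 1.51 to 73.7 (median 16.5) in tube feet. The 2 ranges overlapped between the lower dermis and the higher tube feet libraries. Then came g14490 at 2.87 ± 0.35 (adjusted p = 2.1e-08), g2110 at 2.61 ± 0.43 (adjusted p = 6.7e-06) and g8690 at 2.07 ± 0.33 (adjusted p = 4.4e-06). In the other direction g16520 differed by -3.41 ± 0.34 (adjusted p = 2.9e-10), with 13.4 to 494 (median 202) CPM in dermis and 1157 to 4917 (median 2526) in tube feet. The 2 ranges of g16520 did not overlap.

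Next in tube feet came g17629, with 108 to 793 (median 289) CPM in dermis and 1312 to 8876 (median 5432) in tube feet, again without overlap, a difference of -3.25 ± 0.27 (adjusted p = 2.0e-12). Of the other 7 called lower in dermis, the ones with the largest differences were g1171 at -2.05 ± 0.30 (adjusted p = 6.9e-07), g6423 at -2.01 ± 0.28 (adjusted p = 3.8e-07) and g10347 at -1.85 ± 0.37 (adjusted p = 1.1e-04). The call of g10347, whose levels span the widest range over the classes, was lost without the size term (-1.30, adjusted p = 0.0763).

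Disease status was compared within each tissue, with 2 symptomatic libraries in each, set against the asymptomatic ones (dermis 14, tube feet 13, pyloric caecum 15). The symptomatic animals were medium and large, of 2 sites and 2 batches, so status rests on 2 animals that also differ in these labels. Where 1 symptomatic animal was left out, or McClures Beach alone was fitted, 1 symptomatic library remained and was assumed to vary like the asymptomatic ones. The members were chosen for a spread with size among the asymptomatic dermis and tube feet libraries, which are the reference here. In these tissues the counts of members and the shares over all genes are thus not on equal terms. In dermis 3 of 60 members were called higher in symptomatic animals, where 1.81% of all genes were, and none lower, where 0.463% were (edgeR, false discovery rate 0.01). At an unadjusted p under 0.05, 7 members were higher (7.63% of all genes) and 12 lower (8.33%), and DESeq2 called 3 higher (1.91%) and 3 lower (0.905%). The median log2 difference was -0.45 among members and -0.18 over all genes.

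The called member with the largest dermis difference was g20996. It held 1334 and 1092 CPM in the symptomatic medium and large animals and 16.3 to 224 (median 70.0) in the 14 asymptomatic ones. Both symptomatic libraries were far above every other dermis library, a fitted difference of 4.07 ± 0.42 log2 units (SE; adjusted p = 3.2e-08). In tube feet the same animals held 474 and 435 CPM, within the asymptomatic range of 47.7 to 512. The difference between its dermis and tube feet effects, tested as an interaction added after the values were seen, was 3.45 ± 0.88 (SE) and missed the threshold (edgeR, adjusted p = 0.0590). No member was called in such a test between any pair of tissues, where 0.211% of all genes were called for dermis and tube feet, 0.119% for tube feet and pyloric caecum and 0.069% for dermis and pyloric caecum. At an unadjusted p under 0.05 the members numbered 9, 7 and 8 of 60 for these pairs, against 9.75%, 9.93% and 8.44% of all genes. These fits had no term for the animal, although animals gave libraries to more than 1 tissue, so the pairing was not used. No other tool was run for them.

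The other dermis calls were g6517 and g2728. The symptomatic dermis libraries held 129.9 and 229.6 CPM of g6517 in the medium and large animal, above the asymptomatic range of 12.3 to 58.0, a difference of 2.44 ± 0.40 (adjusted p = 1.4e-04). For g2728 they held 767 and 351 CPM against 3.90 to 414 (median 47.1), a difference of 3.03 ± 0.66 (adjusted p = 0.0039). Here the asymptomatic feeding animal M0D055232T, at 414 CPM, was above 1 of the symptomatic ones. The call of g2728 was lost without either symptomatic animal (adjusted p = 0.0112 without M0D055233U and 0.275 without M0D055236X) and with batch as a term (0.0185). The call of g6517 was lost without M0D055233U (0.0360).

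Since the members differ with size, status was also fitted with size class as a covariate. In dermis 5 members were then called higher (1.92% of all genes) and 2 lower (0.582%). Those called higher were g6036 (2.58 ± 0.47, adjusted p = 5.2e-04) and g4099 (2.21 ± 0.48, adjusted p = 0.0039) beside the 3 above, and those called lower were g2110 (-4.69 ± 1.05, adjusted p = 0.0047) and g3030 (-3.85 ± 0.88, adjusted p = 0.0061). In symptomatic dermis g2110 stood at 1.78 and 6.50 CPM, below all 14 asymptomatic libraries (10.3 to 401). In symptomatic dermis g6036 stood at 521 and 533 CPM, above all of them (7.04 to 356). For g3030 the symptomatic medium and large dermis libraries held 3 and 1 reads. They were not below all asymptomatic ones, since the medium dermis library of M0D055224L held no read of g3030. The calls of g6036, g4099, g2110 and g3030 were named after their values were seen.

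The steepest member was not called in dermis, with or without size class as a covariate. Symptomatic dermis held 14.2 CPM of g10347 in the medium animal, where asymptomatic medium dermis held 18.7, 76.2 and 114, and 41.2 in the large animal, where asymptomatic large dermis held 339 to 688. The log2 difference of -3.93 ± 1.58 missed the threshold (adjusted p = 0.198). In tube feet the same animals held 455 and 1539 CPM of g10347, each next to or within the range of its own class. For g669, symptomatic dermis held 12.5 CPM in the medium and 3745 in the large animal, both below every asymptomatic library of the same class.

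In tube feet 1 of 60 members was called higher in symptomatic animals, where 0.105% of all genes were, and none lower, where 0.00659% were. At an unadjusted p under 0.05, 4 members were higher (4.92% of all genes) and 2 lower (3.8%). DESeq2 called no member higher (0.224% of all genes) or lower (0.112%). The called gene was g14445, with 107 and 888 CPM in the symptomatic medium and large animals against 1.51 to 73.7 (median 16.5) in 13 asymptomatic ones. Both were above the asymptomatic range, with a fitted difference of 4.27 ± 0.62 log2 units (adjusted p = 0.0013). Without M0D055233U, the higher of the pair, the difference was 1.996 and the call was lost (adjusted p = 0.512). With the Friday Harbor pair added it was 1.07 (0.943). The difference kept its size with batch as a term (4.46) and by DESeq2 (4.26), where the adjusted p was 0.142 and 0.0125. The gene g5908, named here after its values were seen, was also above its asymptomatic tube feet range of 0 to 226 CPM in both symptomatic animals, at 351 and 419. Its fitted difference of 2.57 ± 0.74 missed the threshold (adjusted p = 0.225).

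In pyloric caecum 46 members could be tested. Of these, 2 were called higher in symptomatic animals, where 2.24% of all genes were, and 2 lower, where 0.507% were. The higher ones were g18020, at 72.4 and 228 CPM in the medium and large symptomatic animals against 0 to 69.1 (median 9.94) in the 15 asymptomatic ones (3.53 ± 0.69, adjusted p = 0.0019), and g20996, at 66.0 and 161 against 6.06 to 86.2 (median 14.5) (2.24 ± 0.52, adjusted p = 0.0089). Both symptomatic libraries of g18020 stood above all asymptomatic ones, the medium one narrowly, while the medium one of g20996 lay below the highest asymptomatic value. Without M0D055233U both calls were lost, g18020 at 2.86 (adjusted p = 0.182) and g20996 at 1.81 (0.334), and so they were with batch as a term, at 3.02 (0.0630) and 1.94 (0.324). The call of g20996 lay close to the threshold: it was also lost without M0D055236X (0.0317), at McClures Beach (0.0218) and without any of 11 single asymptomatic libraries (0.0102 to 0.0137).

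The lower members in pyloric caecum were g21298 and g4100. The symptomatic libraries held 0.905 and 17.1 CPM of g21298, below all 15 asymptomatic ones (32.5 to 333 (median 134)), a difference of -3.91 ± 0.83 log2 units (adjusted p = 0.0039). Of g4100 they held 7.24 and 6.41 CPM against 12.0 to 194 (median 126) (-3.87 ± 0.88, adjusted p = 0.0069), again below every asymptomatic library. In dermis g4100 went the other way in value, at 2087 and 6032 CPM against 211 to 2593 (1.70 ± 0.65, adjusted p = 0.162). The difference of its pyloric caecum and dermis effects, from the interaction fit without a term for the animal, was -5.47 ± 1.25. It missed the threshold (edgeR, adjusted p = 0.0380). With batch as a term both calls were lost at differences of much the same size, -4.11 for g21298 (adjusted p = 0.0399) and -3.77 for g4100 (0.0630). Without M0D055233U the difference of g21298 was -6.63 (0.0119) and that of g4100 -3.55 (0.204), and without M0D055236X they were -3.07 (0.0999) and -4.24 (0.0743).

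**Figure D5:**
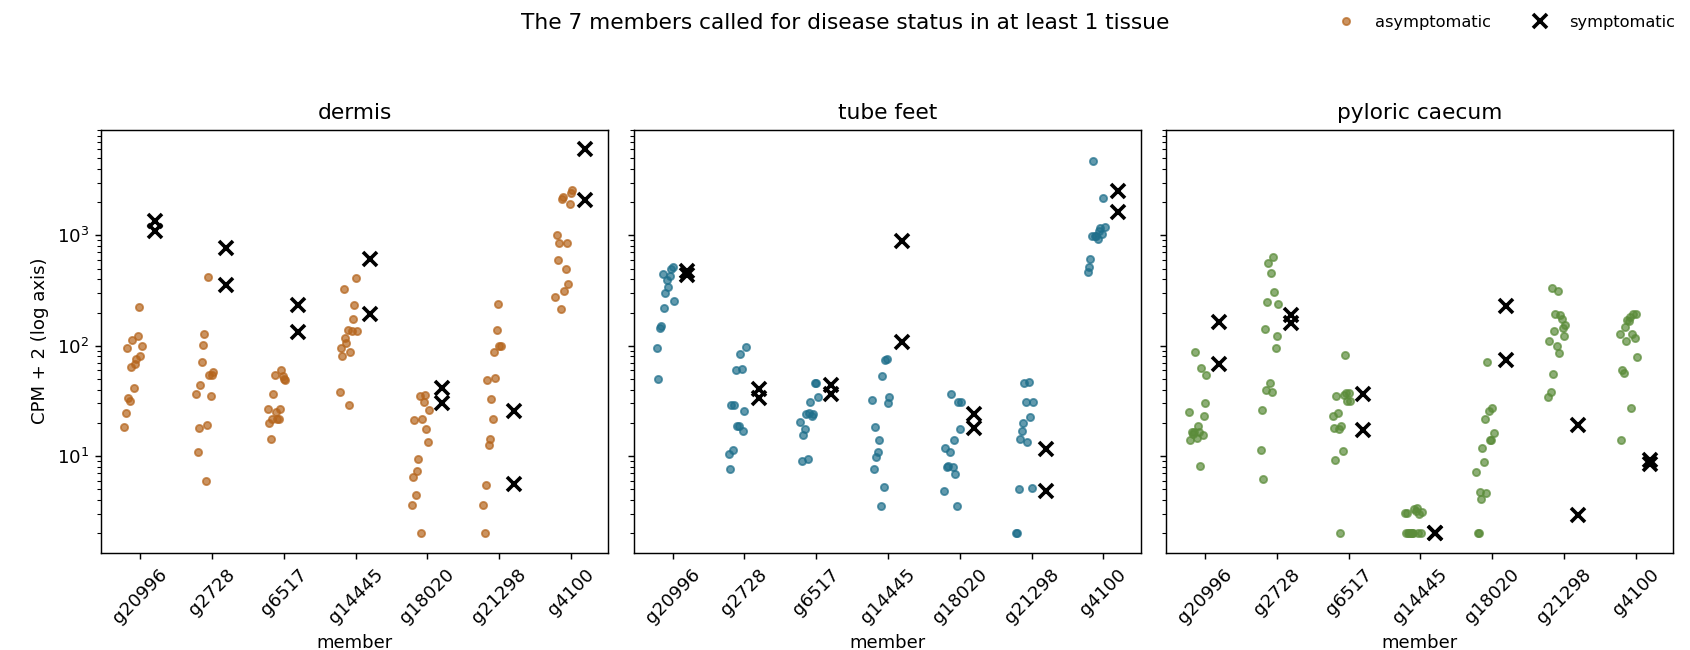
Level of the 7 members called for disease status in at least 1 tissue (x axis) in each library (y axis, CPM + 2 on a log axis), 1 panel per tissue, with circles for asymptomatic and crosses for symptomatic libraries. In dermis both crosses of g20996 stand above all 14 circles, and in pyloric caecum both crosses of g21298 and g4100 lie below all 15.

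Averaged over the 60 members, the symptomatic animals lay within or close to the range of their size class. The dermis score was -0.43 in the symptomatic medium animal, against -0.77 to -0.45 in asymptomatic medium ones, and -0.08 in the large one, against -0.69 to 1.05. The tube feet scores were -0.04 against -0.43 to -0.05, and 0.37 against 0.07 to 0.37. The pyloric caecum scores were -0.31 against -0.20 to 0.01, and 0.06 against 0.03 to 0.59. Single members lay outside these ranges about as often as eligible genes did. In the symptomatic medium animal 39 of 60 members lay outside the range of the 3 asymptomatic medium libraries in dermis (61.0% of eligible genes), 37 in tube feet (59.7%) and 30 in pyloric caecum (60.4%). In the large animal 24 lay outside the range of 5 in dermis (34.4% of eligible genes), 21 in tube feet (34.2%) and 24 in pyloric caecum (40.8%). In symptomatic dermis, the genes most typical of dermis took 1.55% (medium) and 1.89% (large) of gene reads, against 2.48% to 8.20% in asymptomatic dermis. These genes were chosen on the asymptomatic libraries, so the choice itself favours a higher share there. Their part in the differences of the members was not tested.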

How the data were processed

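Each deposited file lists the raw counts of 1 library by gene, and its 5 summary lines were left out of all totals. Per the labels, RNA from the Qiagen RNeasy Mini Kit went into Illumina TruSeq libraries. Per the submitters' processing notes, the authors used Trim Galore 0.4.4, TopHat2 2.0.13, SAMtools 0.1.19 and edgeR. The sources used here do not give the counter, its strand setting, the build or the annotation.

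CPM was computed from the deposited counts by dividing by the library's sum of gene reads and multiplying by 1e6. Tests used edgeR 4.0.16 (quasi-likelihood test, TMM, limma 3.58.1, R 4.3.3) on genes averaging 1 CPM or more over the libraries fitted, with Benjamini-Hochberg adjustment over all genes tested at a false discovery rate of 0.01, and DESeq2 1.42.0 as an alternative. The tests were tried on simulated data. Libraries of a group came from different animals. Reads that met no gene made up 70.5% to 88.4% of the counted lines per library.

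Dermis and tube feet libraries of 1 animal carry the same individual label, so they are paired. The members and lists were chosen with earlier results of these data known. Members named in the text are the 10 steepest, those at the limit, at the extremes of level or of the slope difference, the steepest of each shared step, and up to 5 called per test and direction. Alternatives were other scalings, filters, thresholds, covariates, and leaving out libraries.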

Additional observations from a re-analysis of the deposited data

Results flagged for a closer look

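In groups of 4 or 5 libraries, 112 sets of values of the named members and of the members' mean score were searched for a library far from the rest of its class. In 18 of them 1 library stood apart from the others by a gap that made up most of the group's range. Chance alone also flags some such groups, at a rate not measured here for low and uneven values. The sets share animals and genes, and some flags below rest on 1 read against none.

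In dermis of large animals (n = 5), M0D055232T, which was feeding, held 211 CPM of g5908 against 0 to 39.3 in the others. The large animal M0D055225M held 2209 CPM of g4100 in dermis against 308 to 842, and M0D055234V held 58.0 CPM of g6517 against 19.5 to 24.6. In tube feet of large animals, M0D055225M held 2633 CPM of g10347 against 1404 to 1707, and M0D055227O held 490 CPM (489.7) of g8690 against 263 to 288.

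In pyloric caecum of large animals, M0D055234V, the purple Lifeboat House animal, stood apart in 3 members: 62.0 CPM of g6036 against 3.63 to 19.8, 60.6 CPM of g20996 against 6.06 to 16.6, and 1.38 CPM of g5908, which is 1 read, against none. The feeding animal M0D055232T held 304 CPM of g6826 against 0 to 11.0.

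In pyloric caecum of x-large animals (n = 4), M0D055231S, which was feeding, stood apart in 5 members and in the score. It held 139 CPM of g6826 against 1.34 to 16.9, 20.7 CPM of g13885 against 1.34 to 3.99, 8.73 CPM of g16520 against 1.99 to 3.01, and 1.09 CPM, 1 read, of both g2110 and g8690 against none. Its score was 0.379 against 0.0268 to 0.0709. The library of M0D055229Q held 142 CPM of g10347 against 1.09 to 9.41, and that of M0D055230R held 25.1 CPM of g18020 against 12.0 to 14.2 and 11.05 CPM of g6423 against 0 to 0.997.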

How the results depend on the processing

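Of the 60 members, 39 would have been chosen with batch as a term, 17 from medium to x-large animals alone, 43 to 58 under the other settings of the rule, and 37 to 57 without 1 animal (37 without the small M0D055219G). Of the 60, 59 to 60 kept both slopes above 0 without 1 animal, 57 with batch and 52 from medium to x-large animals. In dermis, small to medium was the largest step in 31 members with TMM (14 to 20 without 1 animal), medium to large in 23 to 36 and large to x-large in 8 to 21 (8 without M0D055226N, also when only its dermis was left out, and 21 without M0D055234V). Every dermis step was above 0 in 15 to 27 (15 without M0D055219G). In tube feet the ranges were 38 to 43, 9 to 15, 7 to 10 and 22 to 34. The pyloric caecum trend called 83 genes, against 206 by DESeq2, 216 at a false discovery rate of 0.05, 8 with batch, 39 for x-large against small, 44 with colour and 35 to 108 without 1 library (35, 41 and 51 without the small M0D055219G, M0D055220H or M0D055221I). Members called higher with size there were 2 by DESeq2, without a filter, at 0.05 and without feeding animals, 1 with filterByExpr and 0 to 1 without 1 library (1 without M0D055226N, M0D055230R, M0D055231S or M0D055232T), and none was lower in any setting.

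For status in dermis, 324 genes were called, 588 at 0.05, 196 with batch, 147 at McClures Beach and 150 to 340 without 1 library (150 without M0D055236X, 152 without M0D055233U). Members higher were 3, 5 with size class and 1 to 4 without 1 library (1 without M0D055233U), and members lower 0, 3 by DESeq2 and at 0.05, 1 without a filter, 2 with size class and 0 to 1 without 1 library. In tube feet 17 genes were called, 51 by DESeq2, 11 with filterByExpr, 44 at 0.05, 1 with batch or at McClures Beach, 0 with the Friday Harbor pair and 3 to 21 without 1 library (3 without M0D055236X, 11 without M0D055231S). The 1 member higher became 0 by DESeq2, with batch, with the Friday Harbor pair and without M0D055233U (0 to 1). In pyloric caecum 363 genes were called, 550 by DESeq2, 876 at 0.05, 27 with batch, 183 at McClures Beach and 69 to 437 without 1 library (69 without M0D055233U, 188 without M0D055236X). Members higher were 2, 0 with batch, 1 at McClures Beach and 0 to 3 without 1 library (0 without M0D055233U), and members lower 2, 0 with batch or at McClures Beach and 0 to 3 without 1 library (0 without either symptomatic animal). In pyloric caecum g5833 joined g21298 and g4100 as lower by DESeq2, at a false discovery rate of 0.05 and with size class as a covariate. The cause of these changes between settings was not tested, beyond the fewer libraries of the settings that leave some out.

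Dermis against tube feet level, fitted with animal as replicate block, gave 23 members higher and 11 lower in dermis, against 19 and 9, and kept all 28 calls. The share of all genes called in that fit is not given, so the rise is not read as a result about the members. Without 1 library the fit with size class gave 17 to 20 members higher and 9 to 10 lower. At 2 symptomatic libraries a tissue, and 1 read worth 1 to 3 CPM, small differences of low members could not be detected.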

Other observations

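The gene g6826 was singled out in pyloric caecum after its values were seen. The feeding animals held 304 (large) and 139 CPM (x-large), and the symptomatic animals, labelled as not feeding, held 363 (large) and 69.7 (medium). The other 13 asymptomatic pyloric caecum libraries held at most 26.5 CPM. In dermis the feeding animals held 159.8 and 113 CPM, within 52.7 to 201 over large and 113 to 555 over x-large animals, where the feeding x-large animal was the lowest. This difference by feeding was not tested.

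A further 2 tube feet libraries, labelled asymptomatic and symptomatic, came from 1 Friday Harbor animal with no size label. The members' mean score was 0.31 and 0.49 in them, against 0.07 to 0.37 in large and 0.27 to 0.90 in x-large tube feet of Point Reyes. The median deviation was lower, 0.01 and 0.26, against 0.17 to 0.46 in large and 0.38 to 0.86 in x-large tube feet. The value of 0.01 lay within the medium range of -0.17 to 0.10, and that of 0.26 within the large range. By the nearest class mean, the members fell to small, medium, large and x-large in 13, 14, 15 and 18 cases in the library labelled asymptomatic and in 5, 13, 18 and 24 in the one labelled symptomatic. In the library labelled asymptomatic g1212 reached 4428 CPM, g14445 reached 2585 and g20996 reached 2111, against 516, 425 and 296 in the one labelled symptomatic. The 100 genes highest in tube feet took 5.08% of the reads of the library labelled asymptomatic and 9.002% of its partner's, against 7.83% to 12.5% in asymptomatic Point Reyes tube feet other than M0D055228P. These genes were chosen on the asymptomatic Point Reyes libraries, which favours a higher share there. The part of this difference of shares in the members' values was not tested.

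Among the 60 IDs, 4 pairs follow each other directly: g4099 and g4100, g13376 and g13377, g19502 and g19503, and g19947 and g19948. What consecutive IDs mean in the genome is not stated in the files. The pair g4099 and g4100 had its highest tube feet values in the same medium animal, M0D055224L, at 402 and 4698 CPM.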
